A study of Rattus norvegicus with 6 samples.

Results

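The fat-digesting enzymes of the exocrine pancreas were examined in rats after a long-term high-fat, high-fructose (HFHF) diet, together with proteins of the zymogen granule and an acinar transcription factor. The 8 genes were chosen by name for these roles. They are Pnlip, Pnliprp1, Clps, Cel and Pla2g1b, grouped here as fat-digesting genes, Sycn and Zg16, which encode zymogen granule proteins, and Rbpjl. Pnliprp1 stands in the first set as a relative of pancreatic lipase, and its enzyme activity was not measured. The files held 32883 genes. Single-cell RNA sequencing (10x Genomics 3' kit) counted unique molecular identifiers (UMIs) in pancreatic cells of 6 male Wistar rats, 2 per group. Young rats were 2 months old and were taken at baseline. Old rats were 20 months old and had been on the normal diet for 18 months, and HFHF-old rats were 20 months old and had been on the HFHF diet for 18 months. All 6 pancreases were digested with collagenase P and passed over a density gradient to isolate islets, so the acinar cells are those that came through an islet preparation. Each rat gave 1 library, and the rat is the replicate.

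Acinar cells make digestive proteins, store them in zymogen granules and release them into the duct. Pancreatic lipase (Pnlip) hydrolyses dietary triglycerides with the help of its cofactor colipase (Clps), carboxyl ester lipase (Cel) acts on cholesterol esters and other esters, and the secreted phospholipase A2 (Pla2g1b) acts on phospholipids. Rbpjl is the acinar subunit of the PTF1 transcription factor, in which it pairs with Ptf1a, and PTF1 is known to drive genes of digestive enzymes.

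Acinar cells were taken as cells in which Prss1, Prss2, Ctrb1 and Cela3b, the 4 gate enzymes, made up at least 10% of UMIs. This gave 3290 of 75201 cells kept after filtering, and they numbered 351 and 627 in young, 740 and 339 in old and 1190 and 43 in HFHF-old rats (replicates 1 and 2 of each group, the order kept throughout). The gate did not use the exocrine genes Cpa1, Cpb1, Ctrc, Cela1 and Cela2a. They made up 9.91, 11.2, 10.8, 13.0, 10.6 and 12% of the UMIs of these cells. As exocrine genes they cannot tell an acinar cell from another cell that holds much acinar RNA. Free RNA was read in 41587 immune-like cells (T-like, natural killer (NK)-like, B-like and macrophage-like, each with at least 3 markers of its list), which should not make these proteins. Their number per rat was 3912 to 9763. They could hold gate enzymes up to the gate of 10%, so acinar RNA from doublets was not told apart from free RNA.

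Some cells within the acinar gate also held markers of other cells, and this differed between rats. At least 3 of 8 macrophage markers were found in 14, 38.6, 40.7, 4.42, 71.5 and 0% of the acinar cells. In HFHF-old replicate 1 such cells held 86.1% of the acinar UMIs, and in HFHF-old replicate 2 the summed level of the list was 0. The 6 hormone genes of islets made up 0.357, 2.6, 8.40, 0.733, 0.486 and 0.00184% of acinar UMIs. Values are therefore also given without 1714 acinar cells that held at least 3 markers of another class or at least 5% hormone UMIs, which left 264, 334, 407, 259, 273 and 39 cells. In HFHF-old replicate 1 the gate enzymes made up 39.1% of acinar UMIs against 19.0 to 22.6% in the other rats. Pairs of libraries shared 20 to 64 barcodes over all cells and 0 acinar barcodes. In addition, 339 cells of HFHF-old replicate 1 lay just under the gate, at 8 to 10%, against 12 to 140 in the other rats.

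Promoters in the RefSeq table for the GRCr8 build (250 bases before to 50 bases after the start of transcription) were matched by symbol for 5 of the 8 genes, the others being Clps, Sycn and Zg16. They were searched on both strands for TGGGAA, the core of the sequence bound by RBPJ-type proteins, and all 5 held it, 1 time in Pnlip, Pla2g1b and Rbpjl, 2 times in Cel and 3 times in Pnliprp1. It was present in 25.7% of 33469 promoters of the same length. On either strand, an E-box (CANNTG) followed by TGGGAA after 5 to 25 bases was in none of the 5 and in 2.87% of all promoters, and an E-box followed by TTCCCA, its reverse complement, after the same number of bases was in Cel and Rbpjl and in 2.70% of all promoters. TATAAA was in Pnlip and Pla2g1b and in 14.2% of all promoters. The promoters of Pla2g1b (chr12:46812604-46812903, minus strand), Pnlip (chr1:267784360-267784659, plus strand) and Pnliprp1 (chr1:267853777-267854076, plus strand) are shown 5′ to 3′ on the strand of the gene because the results turn on these genes, with TGGGAA or its reverse complement in capitals. A match describes the letters only.
Pla2g1b: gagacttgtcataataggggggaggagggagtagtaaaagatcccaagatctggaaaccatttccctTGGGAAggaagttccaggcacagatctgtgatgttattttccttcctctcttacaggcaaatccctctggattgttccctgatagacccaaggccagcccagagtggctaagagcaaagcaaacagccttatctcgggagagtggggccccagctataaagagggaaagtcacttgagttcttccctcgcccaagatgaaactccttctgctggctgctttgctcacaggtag
Pnlip: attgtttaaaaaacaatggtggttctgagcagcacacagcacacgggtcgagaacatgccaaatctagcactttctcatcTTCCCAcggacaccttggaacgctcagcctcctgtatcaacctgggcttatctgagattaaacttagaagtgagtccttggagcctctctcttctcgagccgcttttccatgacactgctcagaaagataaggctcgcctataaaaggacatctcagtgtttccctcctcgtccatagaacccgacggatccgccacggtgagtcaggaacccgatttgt
Pnliprp1: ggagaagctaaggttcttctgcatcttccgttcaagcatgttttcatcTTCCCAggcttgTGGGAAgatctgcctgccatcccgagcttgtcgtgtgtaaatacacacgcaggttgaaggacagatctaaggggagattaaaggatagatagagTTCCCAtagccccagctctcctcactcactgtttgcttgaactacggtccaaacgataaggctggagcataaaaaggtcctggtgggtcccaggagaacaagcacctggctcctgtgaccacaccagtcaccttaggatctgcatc

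Comparing old with young rats asked what differed with age, and comparing HFHF-old with old rats asked what differed with diet at the same age. Young rats were taken at baseline, so age cannot be told apart from time on the normal diet or from when the rats were taken. The old rats enter both comparisons. UMIs were summed per rat over acinar cells and tested with edgeR (quasi-likelihood test), with calls made where the p adjusted by Benjamini-Hochberg was under 0.05 and the change over 1.5-fold. Of 8187 genes tested 0 were called in either comparison, or 0.0% in each, and 0 of the 8 genes were called. Unadjusted p-values were under 0.05 for 627 genes in HFHF-old against old and for 154 in old against young. DESeq2 called 4 genes in the first comparison (AABR07065625.1, Chga, Folr1 and Ubd, all lower in HFHF-old) and 1 in the second (Folr1, higher in old), named here after their values were seen, and none of the 8. In simulated data for HFHF-old against old, log2 changes of 1, 2 and 3 were recovered in 0, 8.5 and 67% of changed genes. Where single ratios were tested, the smallest p that an exact permutation of 4 rats allows is 0.333.

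Pla2g1b was the gene with the clearest order. Its share of acinar UMIs was 4.84 and 5.15% in young, 2.38 and 3.72% in old and 1.23 and 1.66% in HFHF-old rats. Both young rats were above both old rats, and both old rats above both HFHF-old rats. It was the only one of the 8 genes with this order, which 1.65% of all genes tested had. The step from young to old taken alone was common, since 37.7% of genes had a lower share in both old rats. Over single acinar cells the median share of Pla2g1b was 3.73, 4.30, 2.07, 2.58, 0.866 and 1.48%, in the same order of groups.

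Per 100 UMIs of the 5 reference genes, a scale that leaves out the gate enzymes and the markers of other cells, Pla2g1b stood at 48.8 and 46.1 in young, 22.1 and 28.6 in old and 11.6 and 13.9 in HFHF-old rats, again without overlap between groups, as in 1.65% of genes. Against old rats the HFHF-old ratio was 1.98 times lower (mean 12.7 ± 1.64 against 25.4 ± 4.59, SD, n = 2, exact permutation p = 0.333). The old ratio was 1.88 times lower than the young (47.4 ± 1.93, SD, n = 2, exact permutation p = 0.333), a step that 44.6% of all genes also took on this scale. Without the cells that held other markers it was 53.3, 46.8, 21.8, 29.7, 11 and 13.1, in the same order of groups. By ratio in all acinar cells, all genes as a set moved down from young to old (median log2 difference -0.60). From old to HFHF-old they moved up (0.46). The 1.65% is thus no fair rate for an exocrine gene. On CPM (counts scaled to library size) with TMM scaling, Pla2g1b was 43703 and 47415 in young, 25682 and 51581 in old and 9347 and 18261 in HFHF-old rats, so young and old rats overlapped on that scale while both HFHF-old rats stayed lowest. On it 4 of the 8 genes (Clps, Pla2g1b, Pnlip and Pnliprp1) were lower in both HFHF-old than in both old rats, against 24.5% of genes, and none of the 8 had the full order, against 1.53%. The edgeR log2 fold change was -1.48 (SE 0.592, unadjusted p = 0.0317, adjusted p = 0.629) for HFHF-old against old, where unadjusted p-values were under 0.05 in the lower direction for 4.53% of genes, and -0.24 (SE 0.580, adjusted p = 1.00) for old against young. Without cells holding other markers it was -1.02 (SE 0.532, edgeR unadjusted p = 0.0781) and -0.59 (SE 0.528). For HFHF-old against old it was -0.95 without old replicate 2 and -2.29 at a gate of 20%, which leaves out HFHF-old replicate 2.

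**Figure D1:**
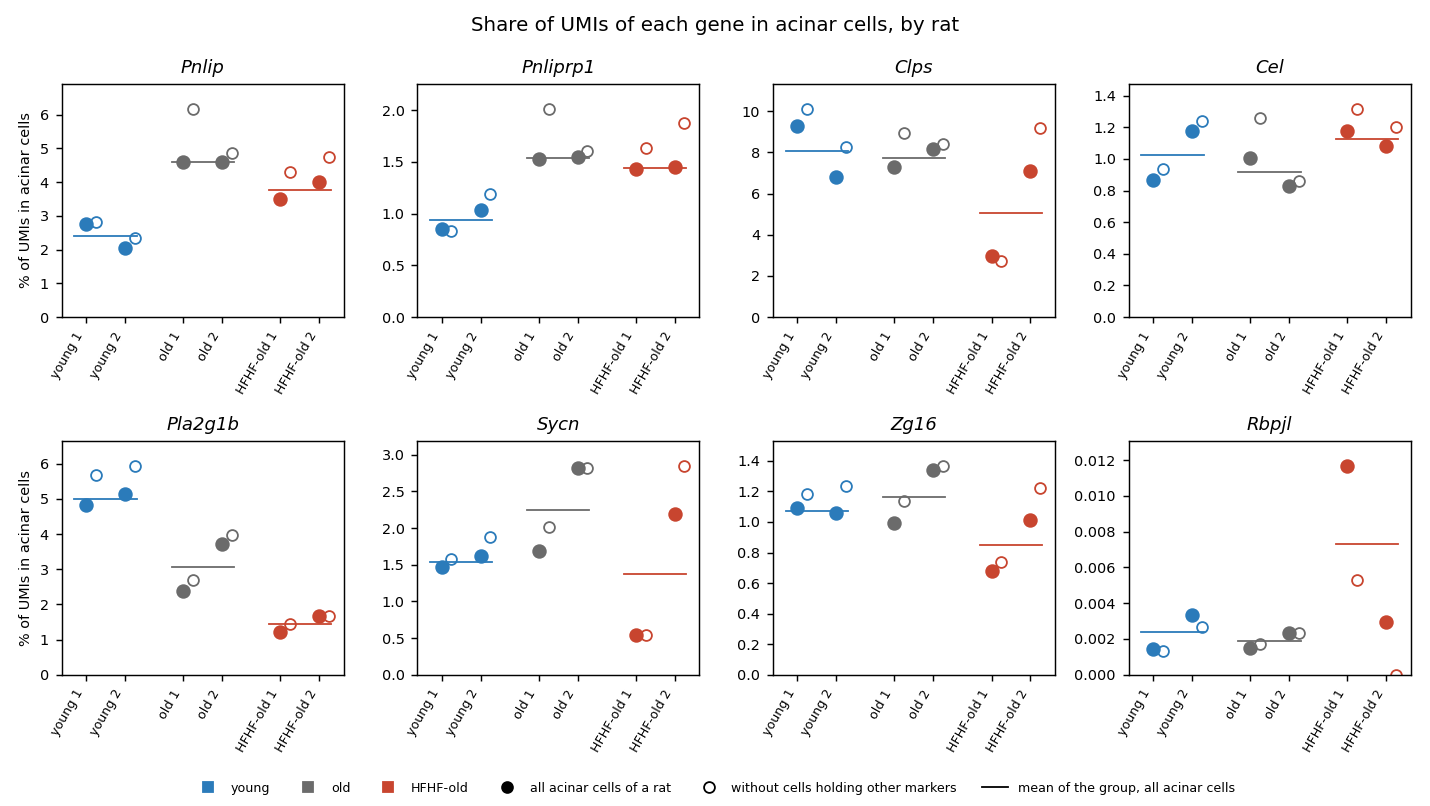
Share of UMIs (%) of each gene in the acinar cells of each rat, with filled points for all acinar cells, open points for those without markers of other cells and a line for the mean of 2 rats. Pla2g1b stood at 4.84 and 5.15% in young and 1.23 and 1.66% in HFHF-old rats, and Clps and Sycn were low in HFHF-old replicate 1 but not in replicate 2.

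Pancreatic lipase and its relative Pnliprp1 were higher in both old than in both young rats, without passing the adjusted test. Pnlip made up 2.75 and 2.05% of acinar UMIs in young, 4.60 and 4.60% in old and 3.51 and 4.02% in HFHF-old rats. Pnliprp1, which encodes pancreatic lipase-related protein 1, made up 0.855 and 1.03% in young, 1.53 and 1.54% in old and 1.43 and 1.46% in HFHF-old rats. For both genes all 4 aged rats were above both young rats. The share of all genes with that pattern was not computed. By share, 3 of the 8 genes (Pnlip, Pnliprp1 and Sycn) were higher in both old than in both young rats, against 3.87% of all genes, and by the ratio to reference genes the same 3 were, against 2.27%. All genes as a set moved down on both scales, with median log2 differences of -0.37 by library size alone and -0.60 by ratio. The 9 other digestive enzymes had a median of -0.20 by ratio. These 2 shares over all genes are thus no fair rate for an exocrine gene.

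Per 100 reference UMIs, Pnlip stood at 27.7, 18.4, 42.7, 35.4, 33.0 and 33.5, a ratio 1.72 times higher in old than in young rats, and Pnliprp1 at 8.63, 9.22, 14.2, 11.9, 13.5 and 12.2, 1.46 times higher. The edgeR log2 fold changes for old against young were 1.37 for Pnlip (SE 0.542, unadjusted p = 0.0303) and 1.14 for Pnliprp1 (SE 0.497, unadjusted p = 0.0459), with an adjusted p of 1.00 for both. Unadjusted p-values were under 0.05 in the higher direction for 1.15% of genes. In the lower direction none of the 8 reached this, against 0.733% of genes. With TMM scaling 7 of the 8 genes had a log2 fold change above 0 in old against young, against 51.3% of all genes. This count turned with the scaling, since it was 4 of 8 by library size alone, against 20.9% of all genes, and 3 of 8 by the ratio to reference genes (Pnlip, Pnliprp1 and Sycn), against 12.9% of 7894 genes with UMIs in all 4 rats. In HFHF-old against old rats the log2 fold change was -0.68 for Pnlip (SE 0.535, adjusted p = 0.706) and -0.50 for Pnliprp1 (SE 0.492, adjusted p = 0.752). For Pnlip it was -0.31 without HFHF-old replicate 1 and -1.08 without HFHF-old replicate 2. Without cells holding other markers Pnlip and Pnliprp1 were at -0.23 and 0.01, and the ratios of Pnliprp1 overlapped between the diets with and without those cells.

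Colipase was low in 1 of the 2 HFHF-old rats. Clps encodes the cofactor of Pnlip. It made up 9.29 and 6.80% of acinar UMIs in young, 7.31 and 8.16% in old, 2.96% in HFHF-old replicate 1 and 7.12% in HFHF-old replicate 2. Its ratio in HFHF-old replicate 2, 59.4 per 100 reference UMIs, was close to the 62.8 and 67.9 of the old rats, while replicate 1 stood at 27.8. Without cells holding other markers replicate 2 stood at 71.7, within the range of the old rats (63.1 and 72.3), and replicate 1 at 20.5.

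Cel overlapped between groups on the ratio scale. It made up 0.869, 1.18, 1.01, 0.831, 1.17 and 1.08% of acinar UMIs and stood at 8.77, 10.5, 9.36, 6.40, 11 and 9.05 per 100 reference UMIs. Its log2 fold change for HFHF-old against old was -0.11 (SE 0.477, adjusted p = 0.965).

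Summed, the 5 fat-digesting genes made up 18.6 and 16.2% of acinar UMIs in young, 16.8 and 18.8% in old and 10.3 and 15.3% in HFHF-old rats. Both HFHF-old rats were below both old rats, by share and per 100 reference UMIs (156 and 145 in old, 97 and 128 in HFHF-old). In cells without other markers the shares were 21.1 and 19.7% in old and 11.4 and 18.7% in HFHF-old rats, and the ratios 170 and 148 against 86.6 and 146, so HFHF-old replicate 2 lay close to the old rats. The log2 fold change was below 0 in 5 of the 5 genes for HFHF-old against old, with a median of -0.68. The median of all genes was -0.05. Without HFHF-old replicate 1 the median of the 5 genes was -0.24, beside a lower -0.50 over all genes. Without HFHF-old replicate 2 it was -1.08, beside 0.01 over all genes. With all 6 rats, 7 of the 8 genes were below 0, against 52.4% of all genes, with a median of -0.76. Without cells holding other markers, 3 of the 5 genes (median -0.23) and 5 of the 8 (median -0.25) were below 0, against 53.3% of all genes. By share, Clps, Pla2g1b, Pnlip and Pnliprp1 were lower in both HFHF-old than in both old rats, against 8.29% of all genes, and Cel and Rbpjl were higher, against 25.1%. By the ratio to reference genes Clps, Pla2g1b, Pnlip and Zg16 were lower, against 5.84%, and Rbpjl was higher, against 23.7%. All genes as a set moved up on both scales, with median log2 differences of 0.49 by library size alone and 0.46 by ratio. The 9 other digestive enzymes, which include the reference genes, had a median of -0.36 by ratio. The shares over all genes given here are thus no fair rate for an exocrine gene. The Rbpjl level of HFHF-old replicate 2 rests on 1 cell. Without cells holding other markers, Pla2g1b and Pnlip stayed clear of overlap by share and Pla2g1b alone by ratio, of the genes that were lower on each scale. The share of all genes that did so in these cells was not computed. The median cell of HFHF-old replicate 1 held 42.2% gate enzymes there, against 15.0 to 24.3% in the other rats, which leaves less room for other genes by share.

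Of the granule proteins, Sycn was low in the same HFHF-old rat as colipase. Sycn, which encodes syncollin, a protein on the inner face of the granule membrane, made up 1.47 and 1.61% of acinar UMIs in young, 1.68 and 2.83% in old, 0.542% in HFHF-old replicate 1 and 2.20% in HFHF-old replicate 2. The low value was that of replicate 1, and replicate 2 lay between the 2 old rats. Its log2 fold change was -1.02 for HFHF-old against old (SE 0.772, adjusted p = 0.703) and 1.03 for old against young (SE 0.772, adjusted p = 1.00). Zg16, a lectin of the granule, made up 1.09, 1.06, 0.992, 1.34, 0.681 and 1.02%, with a log2 fold change of -0.84 for HFHF-old against old (SE 0.554, adjusted p = 0.671). Per 100 reference UMIs Zg16 stood at 9.21 and 10.3 in old and 6.41 and 8.48 in HFHF-old rats, and at 9.20, 10.2, 5.60 and 9.53 without cells holding other markers, where the groups overlapped.

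**Figure D2:**
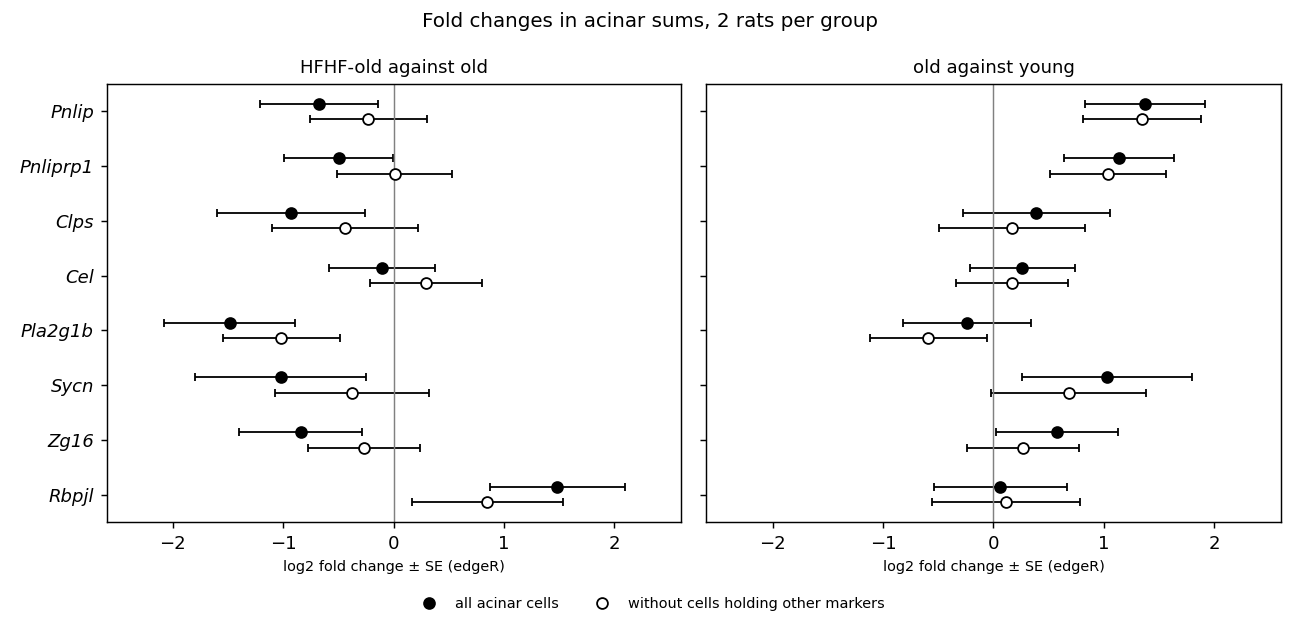
Log2 fold change ± SE from edgeR for each gene in acinar sums, with HFHF-old against old on the left and old against young on the right, for all acinar cells (filled) and without cells holding other markers (open). Pla2g1b lies lowest on the left at -1.48, Pnlip highest on the right at 1.37, and every adjusted p was above 0.05.

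Rbpjl was sparse. Its UMIs in acinar cells numbered 23 and 164 in young, 61 and 36 in old and 1695 and 8 in HFHF-old rats, or 0.00146, 0.00331, 0.00148, 0.00231, 0.0117 and 0.00294% of acinar UMIs. The 95% Wilson interval of the last value ran from 0.00149 to 0.00580%, which covers counting error only and reaches from the level of old replicate 1 to above that of young replicate 2. HFHF-old replicate 1 was the single high rat. The log2 fold change for HFHF-old against old was 1.48 (SE 0.614, unadjusted p = 0.0368, adjusted p = 0.629), with unadjusted p-values under 0.05 in that direction for 3.13% of genes.

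Of the 1695 Rbpjl UMIs of HFHF-old replicate 1, 1600 (94.4%) were in cells with at least 3 macrophage markers. Without cells holding other markers, Rbpjl counted 13, 60, 34, 30, 92 and 0 UMIs, or 0.00134, 0.00266, 0.00171, 0.00232, 0.00532 and 0% of UMIs. HFHF-old replicate 1 stayed the highest rat by share and per 100 reference UMIs (0.0403 against 0 to 0.0210 in the others). In these cells the log2 fold change was 0.85 (SE 0.686, unadjusted p = 0.237). The 0 UMIs of HFHF-old replicate 2 allow a share of up to 0.00168%. All 8 Rbpjl UMIs of that rat were in 1 cell, which was among the 4 cells left out, so its level with all acinar cells rests on that cell, and its interval takes the UMIs as independent. Matn4, an extracellular matrix gene whose interval overlaps that of Rbpjl in RefSeq on GRCr8, stood at 12.1, 3.23, 2.43, 3.85, 19.4 and 3.68 CPM in acinar cells, where Rbpjl stood at 14.6, 33.1, 14.8, 23.1, 117 and 29.4. It was highest in the same rat as Rbpjl, but second highest in the rat with the least Rbpjl, and without cells holding other markers it was highest in young replicate 1 (8.24 CPM, against 4.05 in HFHF-old replicate 1). How strand was used in counting is not given in the sources used here, so reads of the overlapping stretch are uncertain, and the part of these cells and of Matn4 in the Rbpjl level was not tested.

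To set the share of cells apart from depth, cells were thinned to 2000 UMIs each and shallower cells were left out (40 to 477 acinar cells in 5 rats and 6 in HFHF-old replicate 2). Rbpjl then had a UMI in 2.61, 5.86, 2.14, 2.6, 12.3 and 0% of acinar cells, the last being 0 of 37 cells, which allows up to 8.11%. Unthinned, the shares were 5.13, 14.2, 6.22, 6.78, 21.8 and 2.33%, at median depths of 2241 to 4966 UMIs. In macrophage-like cells, which should lack Rbpjl, the thinned shares were 0.456, 0.970, 0.854, 0.179, 1.60 and 0%, the last being 0 of 82 cells, which allows up to 3.66%, and their median depths were 2929.5 to 9754 UMIs. The acinar share was above the macrophage-like share in the 5 rats with more than 43 acinar cells. With cells holding other markers left out, the thinned acinar shares were 3.73, 5.47, 1.90, 2.42, 5.42 and 0%, with HFHF-old replicate 1 close to young replicate 2 on this measure. Pnlip had a UMI in 100% of the thinned acinar cells of every rat, and in 6.1 to 63.1% of the thinned macrophage-like cells.

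The same genes were then followed as free RNA. Pnlip stood at 123, 162, 256, 211, 429 and 254 UMIs per acinar cell and at 1.13, 3.09, 6.17, 1.24, 6.50 and 0.506 UMIs per immune-like cell, a difference of 41.5 to 502 times. The level in immune-like cells was not ordered by group. It was lowest in HFHF-old replicate 2, which had 43 acinar cells, and highest in HFHF-old replicate 1, which had 1190. Macrophage-like cells held 1.09, 3.30, 6.30, 1.36, 6.84 and 0.200 Pnlip UMIs per cell, NK-like cells 1.43, 2.42, 5.58, 0.981, 4.90 and 0.510, and fibroblast-like cells 1.14, 2.61, 4.86, 0.653, 6.06 and 0.507. The level followed the rat more than the cell class. Macrophage-like cells made up most immune-like cells except in HFHF-old replicate 2, where they numbered 90 and NK-like cells 8396.

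In sums over immune-like cells edgeR called 0 of 16197 genes in either comparison, 0.0% of all genes, and 0 of the 8 genes. Unadjusted p-values were under 0.05 for 402 genes in HFHF-old against old and 324 in old against young, and DESeq2 called 49 and 41. Simulated log2 changes of 1 to 3 were recovered in 0% of genes in these sums, so the absence of calls says nothing about the size of a difference. Log2 fold changes were below 0 in 6 of the 8 genes in HFHF-old against old, against 44.0% of all genes, and in 6 of the 8 in old against young, against 49.4%. For HFHF-old against old the log2 fold changes of the 8 genes ranged from -1.72 (Sycn) to 0.72 (Rbpjl). For old against young they ranged from -1.83 (Pla2g1b) to 0.33 (Pnlip). The counts below 0 turned with the rats used. Without HFHF-old replicate 1 or 2, 8 or 3 of the 8 were below 0 in the first comparison, against 51.0 or 50.6% of all genes. Without young replicate 1 or 2, 8 or 2 were in the second, against 45.1 or 48.8%. In T-like and NK-like cells alone 3 of the 8 were in the second, against 49.0%. Without HFHF-old replicate 1, which leaves HFHF-old replicate 2 alone in its group with its spread taken from the other groups, 3047 genes were called, among them Pnlip, Clps and Pla2g1b at log2 fold changes of -3.11, -3.04 and -3.59 (edgeR adjusted p = 0.0497, 0.0368 and 0.0413). These are 3 of the 8 genes, while 18.5% of the 16512 genes tested there were called and 11.3% were called lower.

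The make-up of the free RNA was then set beside that of the acinar cells. Per 100 reference UMIs in immune-like cells, Pla2g1b stood at 78.5 and 60.2 in young, 28.3 and 28.1 in old and 17.1 and 20.0 in HFHF-old rats, and it was again the only one of the 8 genes that stepped down from young to old to HFHF-old without overlap, as 0.173% of all genes tested did. The reference genes made up 0.0838, 0.335, 0.155, 0.102, 0.228 and 0.0145% of UMIs in immune-like cells. A gene that immune cells make themselves is thus pushed up in HFHF-old replicate 2 on this scale, and the shares over all genes given here are no fair rate for an exocrine gene. Taken step by step, Pla2g1b was lower in both old than in both young rats, against 1.7% of genes, and Pla2g1b and Zg16 were lower in both HFHF-old than in both old rats, against 3.94%. By share of UMIs or CPM scaled by TMM, none of the 8 genes had the full order, against 2.07 and 1.8% of genes. Clps was low in HFHF-old replicate 1 (28.8 against 56.6 to 105 in the other rats), as was Sycn (4.63 against 12.9 to 21.2). Pnlip, at 25.9, 17.0, 41.4, 31.3, 28.1 and 36.6, was higher in both old than in both young rats, together with Pnliprp1 and Sycn, against 4.34% of all genes. Rbpjl was higher in both HFHF-old than in both old rats on this ratio, against 9.25%. By CPM it stood at 5.28 and 1.52 in old and 10.9 and 1.01 in HFHF-old rats, so the groups overlapped. Immune-like and acinar cells of a rat come from the same library, so these are 2 readings of 6 rats and not 12 rats.

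**Figure D3:**
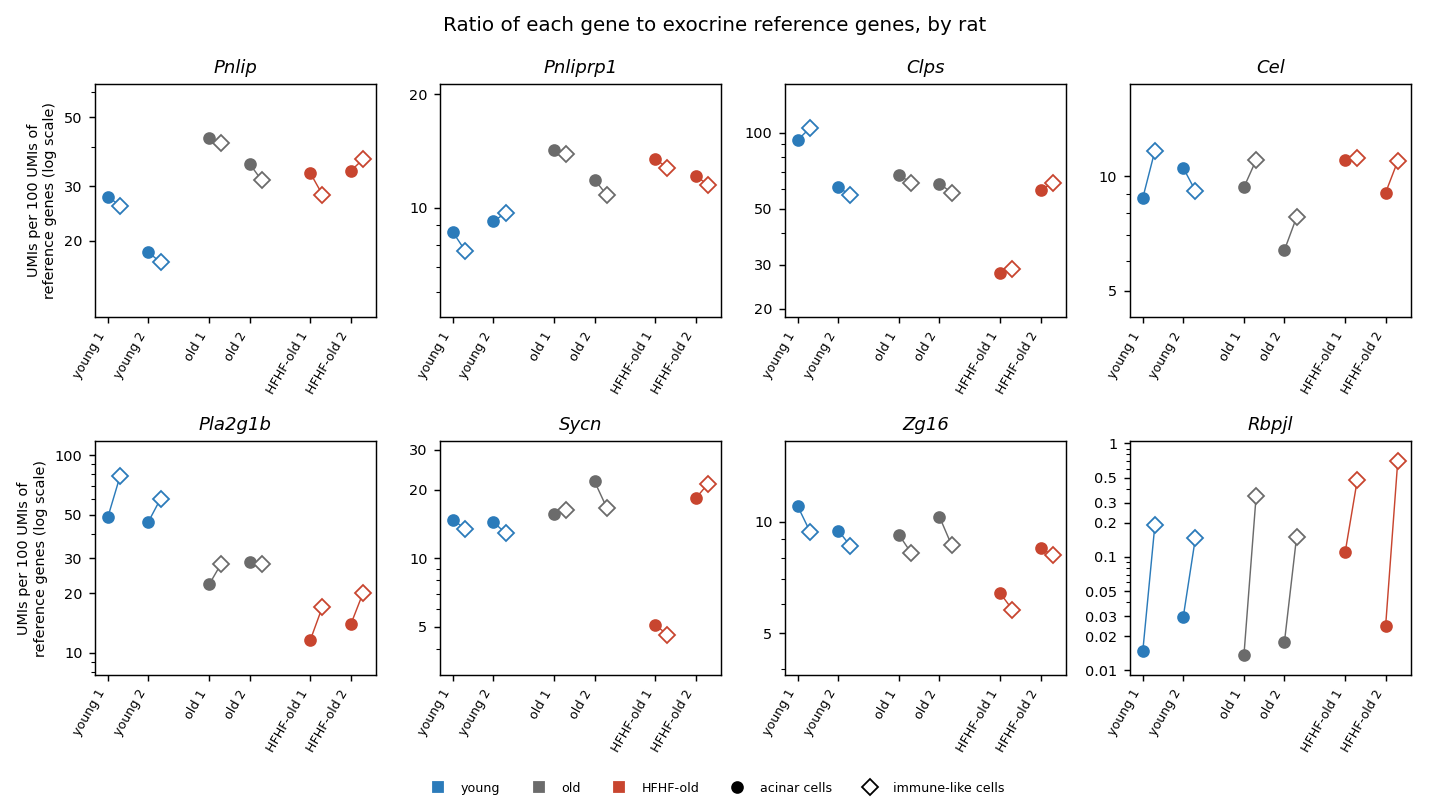
UMIs of each gene per 100 UMIs of the 5 reference genes (log scale), by rat, in acinar cells (filled circles) and in immune-like cells (open diamonds), with a line joining both values of a rat. Pairs lie close together for the first 7 genes, while the Rbpjl ratio was 4.34 to 28.3 times higher in immune-like than in acinar cells. By CPM Rbpjl was lower in immune-like cells of every rat.

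Across single classes the Pla2g1b ratio kept its order in NK-like cells (53.3 and 53.5 in young, 27.8 and 24.5 in old, 13.2 and 16.9 in HFHF-old) and in fibroblast-like cells (59.8 and 50.6, 28.7 and 25.4, 15.3 and 18.2). The share of all genes with this order was not computed for single classes. The Pla2g1b ratio did not keep its order in T-like cells, where HFHF-old replicate 2 stood at 44.6 against 23.7 and 27.2 in old rats. In macrophage-like cells HFHF-old replicate 2 stood at 32.3 from 32 UMIs, against 29.7 and 29.4 in old rats. Old and HFHF-old rats also overlapped in B-like cells (17.4 and 32.2 against 14.7 and 21.6, from 19 to 164 UMIs per rat) and in endothelial-like cells (31.3 and 24.6 against 15.2 and 28.8, the last from 17 UMIs). In islet-like, ductal-like and smooth muscle-like cells 1 HFHF-old rat or both had fewer than 10 cells.

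For each gene the ratio was compared between acinar and immune-like cells within a rat (exact sign-flip permutation of 6 rats, both sides, smallest possible p = 0.0313, adjusted over the 8 tests). No gene passed at an adjusted p of 0.05. Zg16 and Rbpjl both had the smallest possible p and an adjusted p of 0.125, so even both together could not have passed. Clps had a mean log2 difference of 0.00 ± 0.12 (SD, n = 6 rats, exact p = 0.938). Pnlip had 0.09 ± 0.12, Pnliprp1 0.07 ± 0.08 and Sycn 0.09 ± 0.20. Cel was lower in acinar cells in 5 of 6 rats (-0.17 ± 0.22, exact p = 0.0938, adjusted p = 0.15). Zg16 was higher in acinar cells in 6 of 6 rats by 0.16 ± 0.07 (exact p = 0.0313, adjusted p = 0.125), and Pla2g1b was lower in acinar cells in 5 of 6 rats by a log2 difference of -0.41 ± 0.25 (exact p = 0.0625, adjusted p = 0.15).

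Rbpjl had the largest difference of the 8 genes. Its ratio was 0.0148, 0.0296, 0.0137, 0.0178, 0.110 and 0.0246 per 100 reference UMIs in acinar cells and 0.193, 0.147, 0.341, 0.150, 0.476 and 0.696 in immune-like cells, a mean of 10.9 times higher in immune-like cells and higher in 6 of 6 rats (log2 difference -3.44 ± 1.15, exact p = 0.0313, adjusted p = 0.125). By CPM Rbpjl was lower in immune-like cells of every rat, at 1.61, 4.92, 5.28, 1.52, 10.9 and 1.01. It stood at 14.6, 33.1, 14.8, 23.1, 117 and 29.4 CPM in acinar cells. Of the immune-like classes, B-like cells of old replicate 1 stood above its acinar cells, at 45.2 CPM from 17 UMIs in 38 cells. In every other immune-like class of a rat Rbpjl was lower by CPM than in its acinar cells. In fibroblast-like cells the Rbpjl ratio stood at 0.858, 0.493, 0.509, 0.721, 0.723 and 3.96, above the acinar ratio in every rat. Matn4 stood at 2.65, 0.828, 0.791, 1.27, 0.846 and 7.91 per 100 reference UMIs in fibroblast-like cells and at 0.102, 0.0198, 0.0446, 0.0657, 0.108 and 0.141 in immune-like cells, and its part in the counts given to Rbpjl was not tested. Ptf1a, the partner of Rbpjl, stood at 0.0321, 0.0278, 0.0232, 0.0252, 0.0252 and 0.0246 in acinar cells and at 0.0571, 0.0381, 0.0617, 0.0511, 0.0472 and 0.0222 in immune-like cells.

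**Figure D4:**
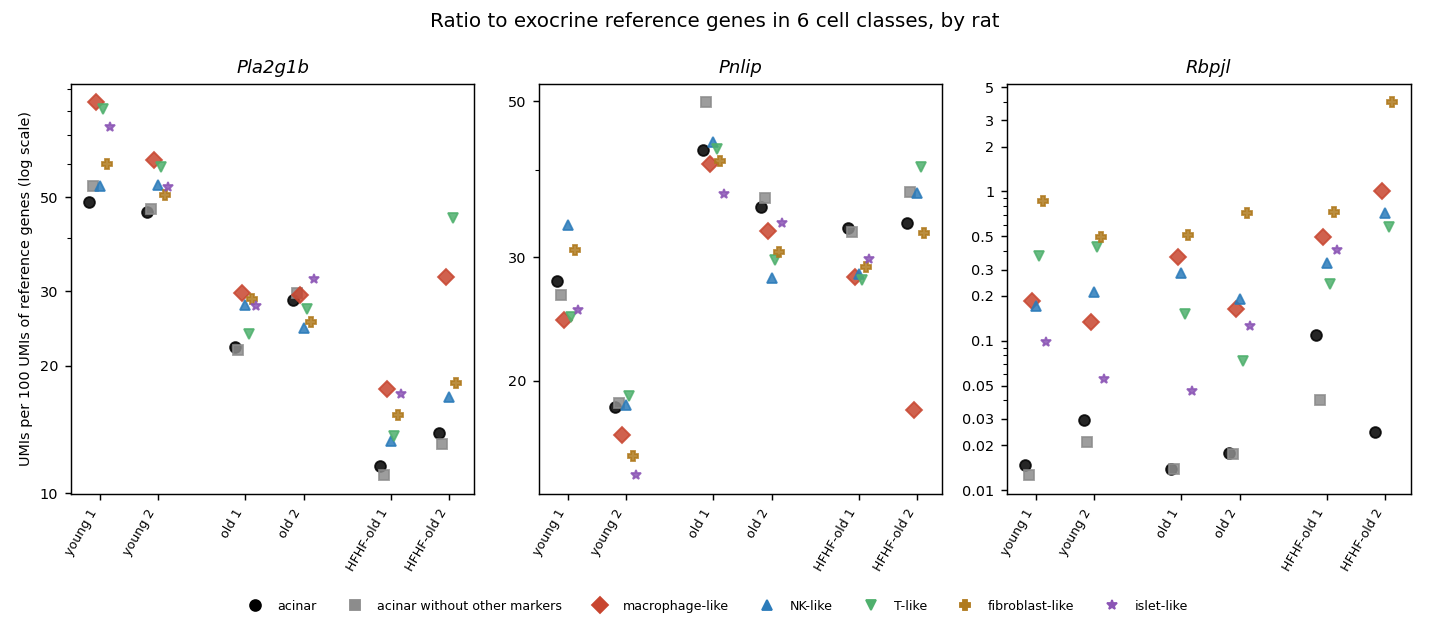
UMIs of Pla2g1b, Pnlip and Rbpjl per 100 UMIs of reference genes (log scale) in acinar cells, acinar cells without other markers and 5 further classes of at least 10 cells, by rat, with values of 0 not drawn. Pla2g1b lies highest in young rats in every class, with HFHF-old replicate 2 above the old rats in T-like and macrophage-like cells. For Pnlip the points of a rat lie near each other except macrophage-like cells of HFHF-old replicate 2 (18.2 from 18 UMIs). The Rbpjl ratio is lowest in acinar cells.

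By Pearson correlation of log2(CPM + 1) over 56 sums of a class in a rat, a description since sums of a rat share its library, the genes most like Pnlip among 3205 included Cela2a (r = 0.985), Ctrc (0.980), Cpb1 (0.973) and Prss3b (0.965), all digestive proteases or their precursors. Of the 8 genes Pnliprp1 was most like Pnlip (0.988) and Rbpjl least (0.633). The genes most like Rbpjl were Serpini2 (0.750), Gp2 (0.718), Ptf1a (0.714), Cpa1 (0.707) and Cpb1 (0.704), of which Gp2 encodes a granule membrane protein.

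Among other genes of these pathways, fixed by list, none was called in acinar sums in either comparison. In HFHF-old against old, the log2 fold changes were below 0 in 2 of 2 other lipid digestion genes tested, 7 of 13 granule and secretion genes, 4 of 9 acinar transcription factors and 6 of 9 other digestive enzymes, with medians of -0.21, -0.12, 0.24 and -0.74. The digestive enzymes thus had a median near that of the 8 genes. Of 14 genes of lipid handling inside cells, 9 were above 0 with a median of 0.24. In old against young, 8 of the 9 other digestive enzymes were above 0 (median 0.39), as were 4 of the 5 fat-digesting genes (median 0.39), and 10 of the 14 lipid handling genes were below 0 (median -0.79), beside a median of 0.01 over all genes. By the ratio to reference genes 2 of the 9 digestive enzymes (median -0.20) and 2 of the 5 fat-digesting genes (median -0.21) were above 0, so the sign of both medians turned with the scaling, and the median of all genes on that scale was -0.60. In HFHF-old against old the ratio, over genes with UMIs in all 4 rats, gave medians of 0.17 for the 2 other lipid digestion genes, 0.37 for 10 granule genes, 0.36 for 8 transcription factors and -0.36 for the 9 digestive enzymes, which include the reference genes, beside 0.46 over all genes, so the sign turned for the first 2 lists. Without cells holding other markers the medians of these 4 lists by ratio were 0.43, 0.26, -0.13 and -0.35, beside 0.08 over all genes. The transcription factors above 0 went from 7 of 8 to 1 of 6, so their sign turned with the cells used. Unadjusted p-values were under 0.05 in HFHF-old against old for Cuzd1 (log2 fold change 1.45) and Vamp8 (-1.58) of the granule list. Cuzd1 stood at 574 and 647 CPM with TMM scaling in young, 385 and 395 in old and 1322 and 811 in HFHF-old rats, with both HFHF-old rats highest (edgeR adjusted p = 0.629). On this scale 15.8% of all genes, and Rbpjl alone of the 8, were higher in both HFHF-old than in both old rats. In the lipid handling list the genes with such values included Cd36 (1.58) and Pdk4 (3.28), each with 0 UMIs in the acinar cells of HFHF-old replicate 2, and in old against young for Fabp4 (-2.11). These genes were named after their values were seen.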

How the data were processed

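Cells of 6 rat pancreases were profiled with the 10x Genomics 3' kit. The authors ran Cell Ranger (version 5.0.0 per the file headers, genome build Rnor_6.0 per the submitters' processing notes), and the deposited values are raw UMI counts per gene and barcode from filtered matrices. The study's methods name another Cell Ranger version. Per-sample columns not used numbered 0. The 8 genes are given as Ensembl identifiers with symbols, without coordinates, and all 8 were in the files and passed the filter on low counts in both sums.

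Barcodes with fewer than 200 genes, over 25% mitochondrial UMIs or in the top 1% of gene number over all barcodes were left out, 2823 of 78024. Libraries held 77387928 to 166875258 UMIs, and acinar sums 272067 to 14549152. Classes were set by the gate, then hormone UMIs of at least 10% (islet-like), then at least 3 markers of a list and more than of any other. Doublets were not called, and cells holding other markers were left out in an alternative. Free RNA was not subtracted. Of the listed markers, Pecam1 and Amy2a3 were not used, as they were not matched by symbol.

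Counts were summed per rat and class and tested in edgeR 4.0.16, with filterByExpr and TMM before glmQLFit and glmQLFTest, in 1 fit of 6 rats without covariates, with 3 residual degrees of freedom, and with DESeq2 1.42.0. SE is the absolute log2 fold change over the square root of F. The steps were tested on simulated counts. Ratios are UMIs per 100 UMIs of Cpa1, Cpb1, Ctrc, Cela1 and Cela2a. Shares of counts have 95% Wilson intervals, and a count of 0 was read as under 3 counts. The text describes all 8 genes, and from lists it names those called. Some genes that met these rules are not reported here. List genes at an unadjusted p under 0.05 and Matn4 were named after their values were seen. The genes and lists were chosen with earlier results of these data known. The directions of lists by ratio, the search for TTCCCA after an E-box, and the fits without cells holding other markers that change a further choice were added after seeing the data. Replicates are separate rats per the labels and the study's methods. Python 3.11.15, scipy 1.17.1 and R 4.3.3 were used.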

Additional observations from a re-analysis of the deposited data

How the results depend on the processing

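None of the 8 genes was called in acinar sums in any setting run. In those sums the number of genes called for HFHF-old against old, 0 as reported, was 4 with DESeq2, 121 with no filter on low counts and 2 without cells holding other markers. With those cells left out it was 3 with DESeq2, 2 with the gate enzymes left out, 2 with the newer quasi-likelihood method, 4 also without HFHF-old replicate 1 and 3 also without HFHF-old replicate 2. AC142181.2 and LOC683849 were among the called in each of these, beside Gcg, Ins1, Ins2 or Fam111a, all named after their values were seen. For old against young it was 1 with DESeq2, 47 with no filter and 2 (Folr1 and RT1-Bb) with DESeq2 without those cells. Leaving out 1 rat gave 0 to 58 and 0 to 21 (58 and 21 without old replicate 2, 48 and 4 without young replicate 1, 6 and 7 without old replicate 1). In immune-like sums DESeq2 called 49 and 41, macrophage-like cells alone gave 1 for old against young (AC127784.2), and leaving out 1 rat gave 0 to 3047 for HFHF-old against old, with 0 to 3 of the 8 genes among them, the high end without HFHF-old replicate 1, where 18.5% of all genes were called. The causes were not tested. Same-numbered rats deviated together with correlations of 0.035, 0.131 and 0.251 in acinar and 0.084, 0.239 and 0.067 in immune-like sums, all weak and above 0. Whether replicate numbers pair the rats cannot be told from 2 rats per group, and the main fit used no pairing. A replicate block gave 1 called gene (AABR07060872.1) in each acinar comparison and 0 in immune-like sums. Under the block Cel turned to -0.31 in immune-like sums for HFHF-old against old and Rbpjl to -0.49 for old against young.

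Over all settings 62 log2 values for single genes changed sign. Another 687 kept their sign and side of the threshold, and 3 kept their sign and passed it, those called in immune-like sums without HFHF-old replicate 1. For HFHF-old against old in acinar sums, Pnliprp1 was 0.011 without cells holding other markers (0.045 with DESeq2, 0.058 without the gate enzymes, 0.011 with the newer method), and Cel was 0.29 (0.32, 0.33 and 0.29) and 0.30 with library size alone. Leaving out 1 rat, with or without those cells, gave -2.04 to -0.90 for Pla2g1b, -1.08 to -0.14 for Pnlip, -0.79 to 0.12 for Pnliprp1, -2.09 to 0.16 for Clps, -0.32 to 0.25 for Cel, -2.79 to 0.32 for Sycn, -1.50 to 0.048 for Zg16 and -7.81 to 2.01 for Rbpjl. The positive ends, and the negative end for Rbpjl, were without HFHF-old replicate 1 and cells holding other markers, where 1 rat with 39 cells was left. Rbpjl had 0 UMIs in that rat, so its -7.81 depends on the prior count and is no measured fold. A gate of 20% gave -2.29 for Pla2g1b and -1.36 for Pnlip. Old against young in acinar sums, Clps, Cel and Rbpjl were -0.059, -0.15 and -0.37 with library size alone, which moved the median of all genes from 0.01 to -0.37 (and from -0.05 to 0.49 for HFHF-old against old). Rbpjl was also -0.092 in cells with at least 2000 UMIs and -0.0061 with no filter, Pla2g1b was 0.0024 at a gate of 5%, and leaving out 1 rat gave -0.83 to 0.18 for Pla2g1b and -0.49 to 0.83 for Rbpjl.

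In immune-like sums for HFHF-old against old, Cel was -0.023 with gate enzymes under 5%, -0.050 in macrophage-like cells alone and -0.064 with the top 1% kept. Leaving out 1 rat gave -3.11 to 0.30 for Pnlip, -3.22 to 0.72 for Pnliprp1, -2.91 to 0.91 for Cel, -3.13 to 0.17 for Zg16 and -1.69 to 1.86 for Rbpjl. For old against young, T-like and NK-like cells alone gave 0.43 for Pnliprp1, 0.11 for Clps, 0.61 for Sycn, 0.11 for Zg16 and -0.036 for Rbpjl. Leaving out 1 rat gave -0.21 to 1.28 for Pnlip, -0.96 to 1.47 for Pnliprp1, -1.26 to 0.49 for Cel, -0.99 to 1.06 for Sycn, -1.37 to 0.60 for Zg16 and -0.98 to 1.20 for Rbpjl. For the ratio between acinar and immune-like cells, the gate enzymes as reference gave -0.085 for Pnlip, -0.10 for Pnliprp1, -0.17 for Clps, -0.083 for Sycn and -0.0093 for Zg16, a gate of 20% gave -0.011 for Clps, and leaving out 1 rat gave -0.018 to 0.036 for Clps.

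With 2 rats per group and 43 acinar cells in HFHF-old replicate 2, log2 differences of 2 or less were seldom or never recovered in simulation. Neither age nor diet can be told apart from differences between single rats or libraries. A gate of 20% left 8 cells in that rat, which was left out there.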
